A study of Homo sapiens with 8 samples.

Results

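Synaptic and neural adhesion molecules are cell-surface proteins that join the membranes of neighbouring cells, above all at synapses and along axons. Their transcripts were examined in H9, a widely used line of human embryonic stem cells, by total RNA sequencing of EXT1-/- cells, made by CRISPR/Cas9 targeting of EXT1, and of wild-type (WT) cells, with 4 libraries in each group. EXT1 encodes an enzyme that polymerises heparan sulfate, the charged sugar chain of cell-surface and matrix proteoglycans, and per the labels the line lacks this sugar. Both genotypes were seeded with 5 µM of the ROCK inhibitor Y-27632, kept in stem cell medium, and then taken after 28 h of mesendoderm induction, with CHIR-99021 at 6 µM to inhibit GSK3 and so activate β-catenin. The comparison asks how the loss of EXT1 altered the transcriptome of induced cells. The genotype rests on 1 EXT1-/- line, and uninduced cells were not analysed here. The labels do not tell whether the replicates are separate cultures, so each p-value reflects the variation among these libraries, which could be technical.

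The members were chosen by gene name: neurexins, neuroligins (NLGN1 to 3), LRRTMs, SLITRKs, contactins and contactin-associated proteins, FLRTs, teneurins, latrophilins, CADMs, the LAR-type phosphatases PTPRD, PTPRF and PTPRS, LRRC4 and its relatives, and the NCAM, L1 and DSCAM families. Of 56 such names, 40 were among the 15811 genes of the deposited table. The other 16 (LRRTM2, LRRTM3, SLITRK1, SLITRK3, CNTN2, CNTN3, CNTN4, CNTN5, CNTN6, CNTNAP4, FLRT1, ADGRL4, LRRC4B, DSCAM, DSCAML1 and CHL1) were not analysed here. Every gene in the table had its second-highest value at 0.977 CPM (counts scaled to library size) or more. For 2 members, CNTNAP5 and LRRTM1, all WT libraries were below 1 CPM, so these entered through their EXT1-/- values and could only be higher there. SLITRK2 reached 1 CPM in WT replicate 3 but in no other WT library, so it also entered through its EXT1-/- values.

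At a synapse, presynaptic hubs such as neurexins and LAR-type phosphatases reach across the cleft to postsynaptic partners: neuroligins and LRRTMs for neurexins, and SLITRKs and other leucine-rich repeat proteins for the phosphatases. Latrophilins form a second system with teneurins and FLRTs, and contactins, CADMs, NCAMs and the L1 family act along axons and between cells more widely. Several of these proteins are tied to heparan sulfate: in mice, neurexins carry the chain themselves, and LAR-type phosphatases, neuroligins and LRRTMs bind it. Many are also transcribed well before synapses form, NCAM1 for example in early mesoderm and FLRT3 in the early mouse embryo.

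Gene positions are from GENCODE 29 on GRCh38. Values are normalised read counts, in which 1 CPM equals 38.9 counts and a library summed to between 37737058 and 40017763. EXT1, the targeted gene, had 890, 894, 915 and 980 counts in EXT1-/- libraries and 1776, 1499, 1464 and 1508 in WT libraries. Its transcript was lower in every EXT1-/- library but still present (two-sided exact permutation test, p = 0.0286, the smallest that 4 against 4 libraries allow). The edited exon cannot be read from gene-level values. The libraries also divided by a feature that no label mentions. Transcripts of the mitochondrial genome took 9.18 to 10.7% of the counts in EXT1-/- replicates 1 and 4 and WT replicate 1 (the high set), and 5.30 to 5.43% in the remaining 5 (the low set: 2 EXT1-/- and 3 WT libraries). Values from the low set alone, or from a model with a term for the set, are given where they change a call.

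Of the 40 members, 21 (52.5%) passed an adjusted p below 0.05 (limma on log2(value + 1), Benjamini-Hochberg over all 15811 genes), where 32.0% of all genes passed. The excess lay on the higher side. Of the members, 16 (40.0%) rose in EXT1-/- cells against 15.2% of all genes, and 5 (12.5%) fell against 16.8%. With at least a 2-fold difference, 8 members (20.0%) rose and 2 (5.0%) fell, where 2.74% and 4.28% of all genes did so. Without CNTNAP5 and LRRTM1, 14 of 38 members (36.8%) rose and 6 (15.8%) rose at least 2-fold. The median log2 fold change was 0.22 over the members and 0.01 over all genes, and in the low set alone 0.21 over the members and 0.0037 over all genes. In 19 members (47.5%) no library of 1 group reached the range of the other, 15 higher and 4 lower, where 33.5% of all genes were so separated.

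**Figure D1:**
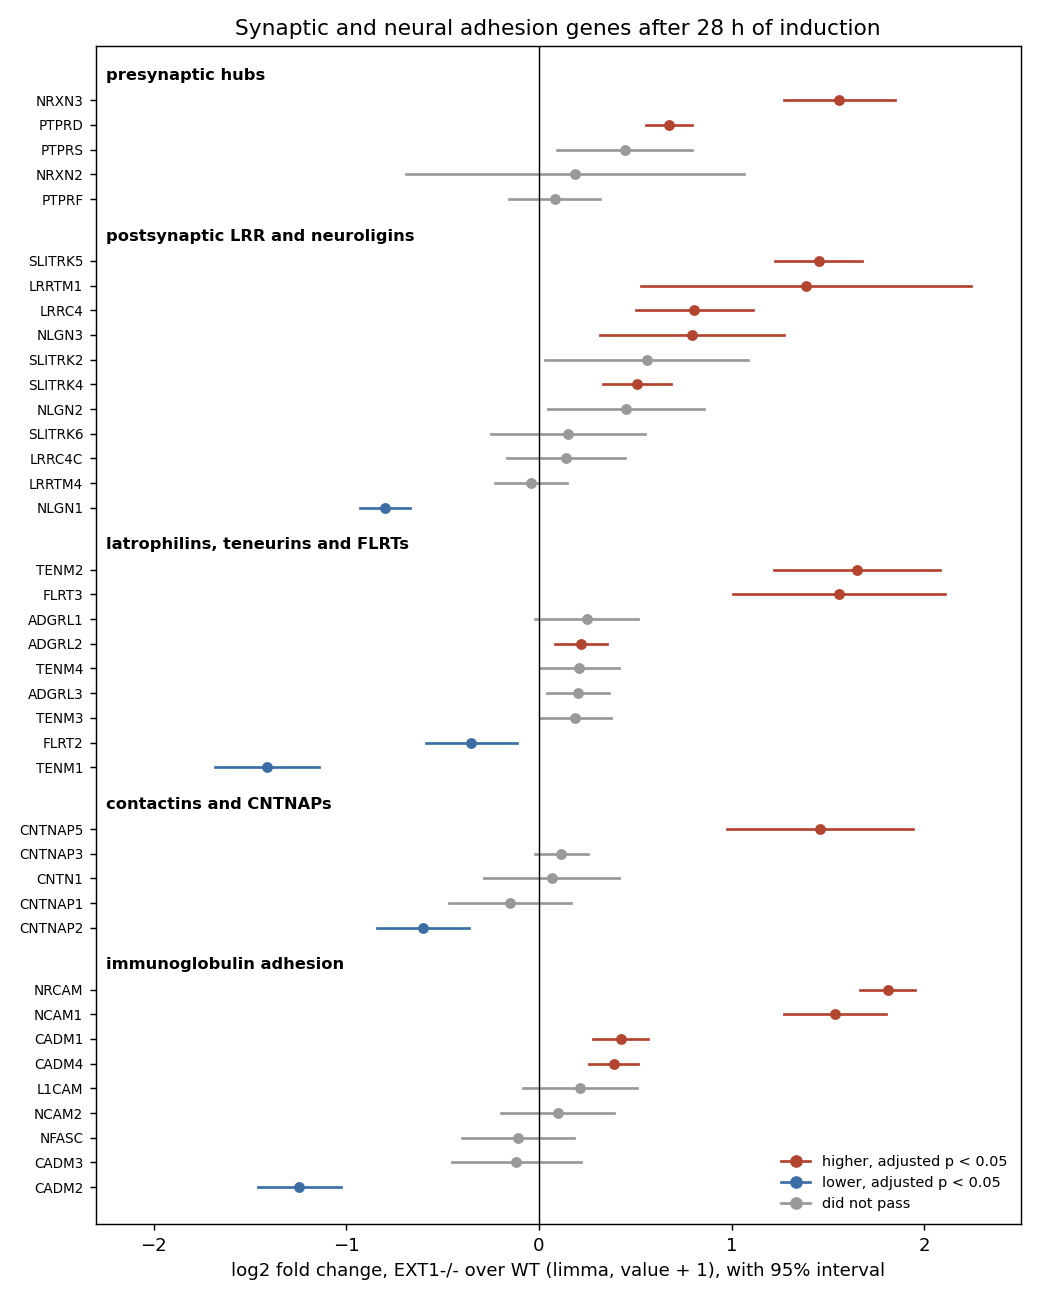
Log2 fold change of 39 of the 40 members, EXT1-/- over WT, with its 95% interval from limma, ordered within the 5 groups of the text; coloured points passed an adjusted p of 0.05 and grey points did not. NRCAM at 1.81 stands farthest to the right and TENM1 at -1.41 farthest to the left.

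All 21 members that passed also passed within the low set alone and in a model with a term for the library set. The low set alone called 26 members (21 higher, 5 lower), where it called 45.0% of all genes (20.9% higher, 24.1% lower). The model with the set term called 28 members (23 higher, 5 lower) and 51.8% of all genes (26.2% higher, 25.6% lower). Gained in both were ADGRL1, ADGRL3, NLGN2, PTPRS and TENM3, and with the set term also SLITRK2 and TENM4, all higher in EXT1-/- cells. The library set itself moved with the members: 17 (42.5%) were higher in the high set at an adjusted p below 0.05 and 0 were lower, where 24.1% and 24.4% of all genes were. The high set holds 2 EXT1-/- libraries and 1 WT library. In bulk RNA, a change in the number of cells that make a transcript and a change in RNA per cell cannot be told apart.

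**Figure D2:**
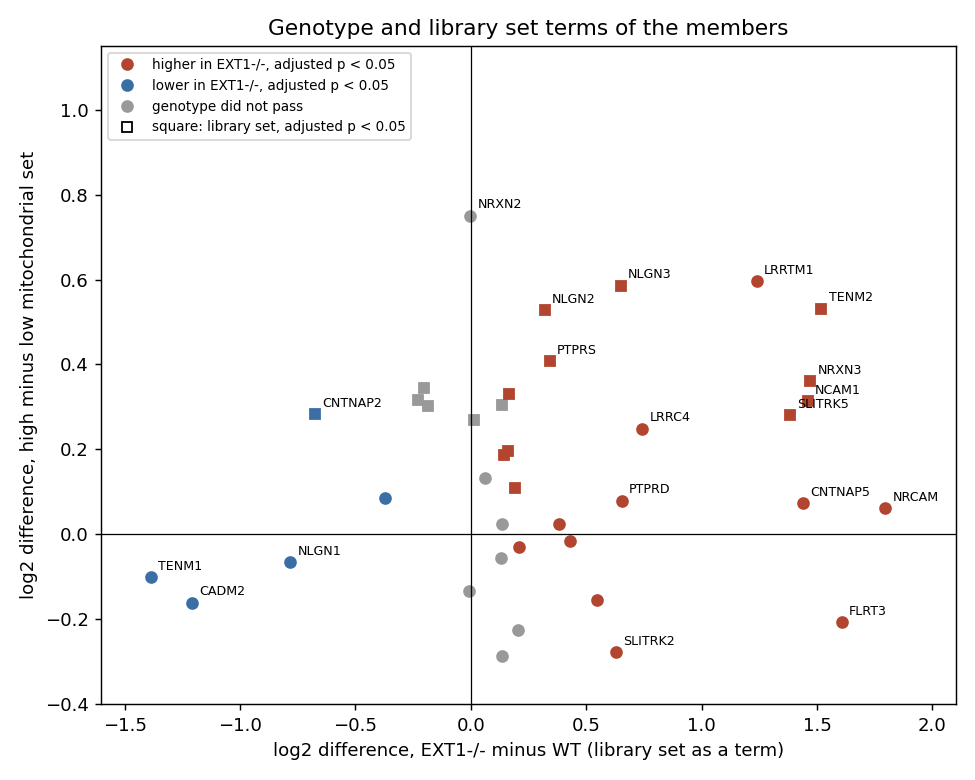
For 39 of the 40 members, the log2 difference of EXT1-/- minus WT on the x axis and of the high minus the low library set on the y axis, both from the model with a set term. Colours mark genotype calls of that model and squares mark the 17 members higher in the high set; NRCAM, farthest to the right at 1.79, lies near 0 on the y axis.

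Among the presynaptic hubs, NRXN3 (ENSG00000021645, chr14:78170373-79868290, plus strand), which encodes a neurexin, had the largest log2 fold change. It had 3494, 2938, 2778 and 3428 counts in EXT1-/- libraries and 1362, 997, 984 and 966 in WT libraries. The groups lay far apart, and the means of 3160 ± 355 and 1077 ± 190 (SD, n = 4 each) differed 2.93-fold (log2 fold change 1.56 ± 0.13 (SE), adjusted p = 3.05e-05). NRXN2 was near the floor of the table, with 51, 42, 41 and 95 counts in EXT1-/- libraries and 71, 38, 70 and 26 in WT libraries. Its groups overlapped throughout, and the 95% interval of its log2 fold change, -0.69 to 1.06, allows a difference in either direction.

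The LAR-type phosphatases are receptor tyrosine phosphatases that organise presynaptic terminals. PTPRD had 2331, 2288, 2222 and 2322 counts in EXT1-/- libraries and 1532, 1408, 1374 and 1434 in WT libraries, and rose (log2 fold change 0.67 ± 0.05, adjusted p = 2.56e-05). Each group was tight and they did not overlap. PTPRS, whose product binds heparan sulfate in mouse and chick neurons, had 4097, 3482, 3149 and 4843 counts in EXT1-/- libraries and 3445, 2736, 2906 and 2317 in WT libraries. Its groups overlapped and it missed the threshold (log2 fold change 0.44, adjusted p = 0.0566), but it passed with the set term (0.00611), in the low set (0.0289), with limma-voom (0.0387), without WT replicate 1 (0.0234) and without EXT1-/- replicate 3 (0.0315). The authors' deposited table gives it an FDR of 0.00923. PTPRF had 10316, 9498, 8697 and 10815 counts in EXT1-/- libraries and 11060, 9237, 8947 and 8060 in WT libraries, which overlapped, with a log2 fold change of 0.08 and a 95% interval of -0.16 to 0.32.

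Of the postsynaptic leucine-rich repeat proteins and neuroligins, 11 of 16 names were measured, and 5 rose, 1 fell and 5 did not pass. The share called was 54.5%, where 32.0% of all genes were called. SLITRK5 (ENSG00000165300, chr13:87672615-87696272, plus strand), a postsynaptic partner of PTPRD, had 4652, 4003, 3844 and 4926 counts in EXT1-/- libraries and 1823, 1506, 1521 and 1506 in WT libraries. The groups were far apart, with means of 4356 ± 516 and 1589 ± 156 (SD, n = 4 each), a 2.74-fold difference and an adjusted p of 1.21e-05. SLITRK4 rose with a log2 fold change of 0.51 (588 to 658 counts in EXT1-/- libraries and 387 to 462 in WT libraries). SLITRK2 had 38 to 52 counts in EXT1-/- libraries and 23 to 43 in WT libraries. SLITRK6 had 69 to 126 counts in EXT1-/- libraries and 78 to 88 in WT libraries. Neither passed, though SLITRK2 did with the set term (adjusted p = 0.0410) and without WT replicate 3 (0.0485). That replicate was its only WT library above 1 CPM. Since SLITRK2 entered the table through its EXT1-/- values, its entry favoured a call as higher there. SLITRK2 had the lowest level per kilobase of all 40 members.

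Of the 3 neuroligins, which bind neurexins, 1 fell, 1 rose and 1 did not pass. NLGN1 fell, with 492, 521, 506 and 512 counts in EXT1-/- libraries and 834, 924, 875 and 903 in WT libraries (log2 fold change -0.80 ± 0.06, adjusted p = 1.51e-05). NLGN3 rose, with 319, 207, 170 and 258 counts in EXT1-/- libraries and 178, 124, 122 and 117 in WT libraries (log2 fold change 0.80, adjusted p = 0.0194). Its groups overlapped, and within each genotype the high-set libraries held the highest counts. The call was lost without EXT1-/- replicate 4 or without WT replicate 2, 3 or 4 (adjusted p 0.0501 to 0.0559). NLGN2, the neuroligin of inhibitory synapses, had 1968 to 3092 counts in EXT1-/- libraries and 1508 to 2372 in WT libraries and missed the threshold (log2 fold change 0.45, adjusted p = 0.0839); it passed with the set term (0.00125), in the low set (0.00381) and without WT replicate 1 (0.0177).

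LRRC4, the leucine-rich repeat ligand of netrin-G2, rose with 1215, 1206, 1185 and 1587 counts in EXT1-/- libraries and 858, 673, 618 and 825 in WT libraries (log2 fold change 0.81 ± 0.13, adjusted p = 0.00195). Its relative LRRC4C, the netrin-G1 ligand, had 86 to 109 counts in EXT1-/- libraries and 77 to 99 in WT libraries and did not pass. LRRTM1, a postsynaptic partner of neurexins, was scarce: 49, 27, 45 and 35 counts in EXT1-/- libraries and 25, 13, 16 and 7 in WT libraries, with all WT values below 1 CPM. Its log2 fold change of 1.39 ± 0.38 had an adjusted p of 0.0218, and the call was lost without WT replicate 2 or without EXT1-/- replicate 1 or 3 (0.0543 to 0.0630). LRRTM4, which binds heparan sulfate on neurexins and glypicans in mice, had 245 to 297 counts in EXT1-/- libraries and 267 to 283 in WT libraries, and the 95% interval of its log2 fold change was -0.23 to 0.15.

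In the latrophilin, teneurin and FLRT system, 9 of 11 names were measured, and 3 rose, 2 fell and 4 did not pass (55.6% called, against 32.0% of all genes). The changes ran in opposite directions within 2 of its families. TENM2 (ENSG00000145934, chr5:167284799-168264157, plus strand), a teneurin that binds latrophilins, had 486, 373, 333 and 471 counts in EXT1-/- libraries and 183, 122, 123 and 104 in WT libraries. It rose 3.13-fold without overlap (log2 fold change 1.65 ± 0.19, adjusted p = 2.42e-04). TENM1 (ENSG00000009694, chrX:124375903-124963817, minus strand) had 111, 160, 132 and 128 counts in EXT1-/- libraries and 379, 322, 341 and 368 in WT libraries, and fell (log2 fold change -1.41 ± 0.12, adjusted p = 3.69e-05). TENM3 and TENM4, the more abundant teneurins per kilobase, did not pass, with log2 fold changes of 0.19 and 0.21 and adjusted p-values of 0.104 and 0.108. With the set term both passed (TENM3 at 0.0235 and TENM4 at 0.0479), and TENM3 also passed in the low set (0.0179) and without WT replicate 1 (0.0189).

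FLRT3 and FLRT2 encode leucine-rich repeat ligands of latrophilins and of the netrin receptors UNC5. FLRT3 had 201, 192, 195 and 247 counts in EXT1-/- libraries and 47, 65, 68 and 115 in WT libraries, and rose 2.83-fold with an adjusted p of 0.00137. The log2 difference was 1.27 in the low set and 2.22 in the high set, where the lone WT library held the lowest WT count. FLRT2 had 449, 383, 366 and 362 counts in EXT1-/- libraries and 511, 489, 429 and 564 in WT libraries, and fell (log2 fold change -0.35 ± 0.10, adjusted p = 0.0312). Its groups overlapped, and the call was lost without any of WT replicates 1, 2 and 4 or EXT1-/- replicates 2, 3 and 4 (0.0517 to 0.0843). The authors' deposited table gives FLRT2 an FDR of 0.0832.

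The latrophilins, adhesion G protein-coupled receptors, showed small differences. ADGRL2 had 14075, 13611, 13730 and 14118 counts in EXT1-/- libraries and 13223, 11484, 11322 and 11794 in WT libraries. The groups did not overlap and it rose (log2 fold change 0.22 ± 0.06, adjusted p = 0.0210), but the call was lost without WT replicate 2, 3 or 4 or EXT1-/- replicate 1 or 4 (0.0509 to 0.0711), and the authors' deposited table gives an FDR of 0.149. ADGRL1 had 4780, 4018, 3912 and 5261 counts in EXT1-/- libraries and 4434, 3609, 3742 and 3322 in WT libraries, which overlapped (log2 fold change 0.25, adjusted p = 0.145). ADGRL3 did not pass either, with 0.20 on the log2 scale (adjusted p = 0.0574). ADGRL1 passed with the set term (0.0157), in the low set (0.0493) and without WT replicate 1 (0.0466). ADGRL3 passed with the set term (0.0218), in the low set (0.0342) and without EXT1-/- replicate 1 (0.0400).

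**Figure D3:**
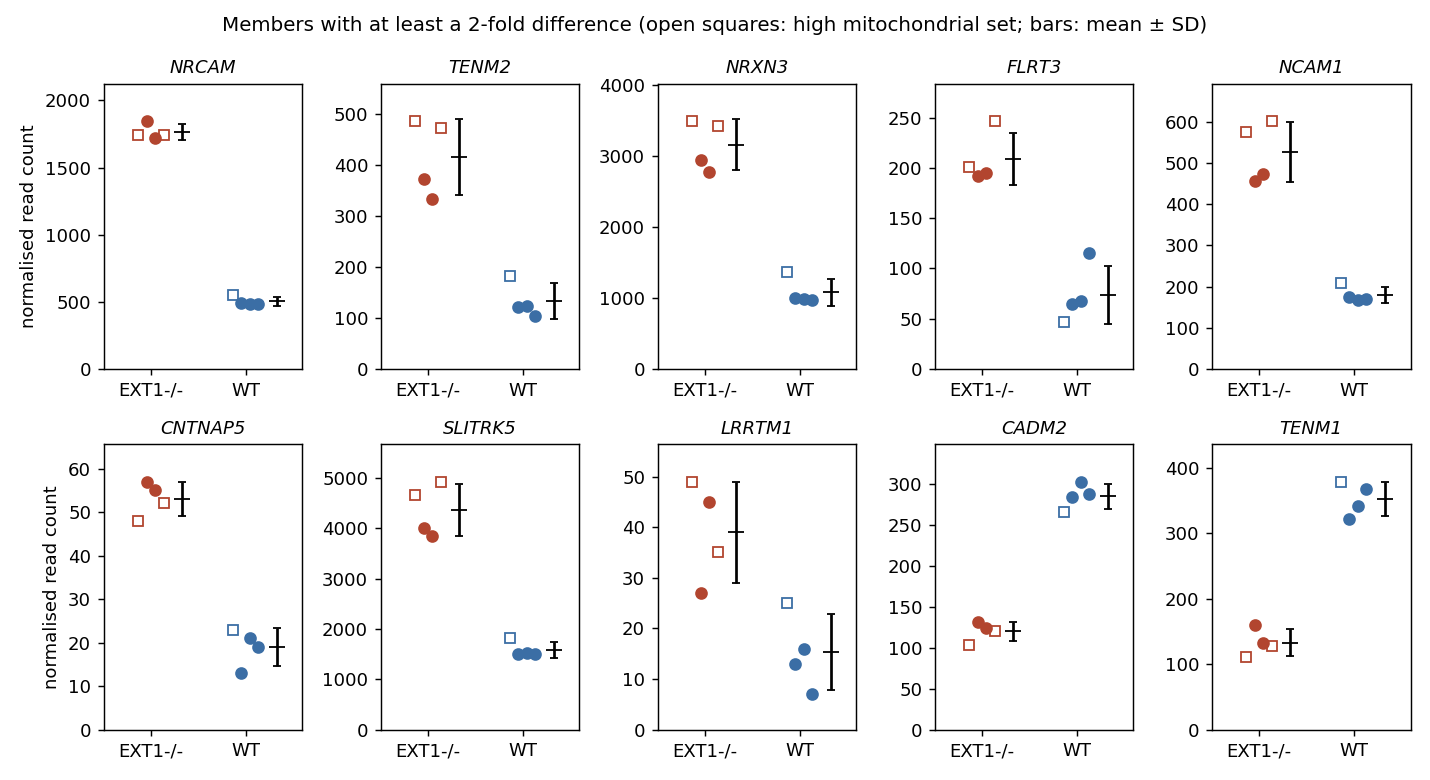
Normalised read counts, on linear axes from 0, of the 10 members that passed at 2-fold or more, with 1 point per library, high-set libraries as open squares, and the mean and SD of each group beside its points. The groups are apart in every panel, and for NRXN3 and SLITRK5 the highest WT point is WT replicate 1, at 1362 and 1823 counts.

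Contactins are membrane-anchored adhesion proteins that pair with contactin-associated proteins (CNTNAPs) along axons. Of their 11 names 5 were measured, and 1 rose, 1 fell and 3 did not pass. The 40.0% called lies near the 32.0% of all genes, and CNTNAP5, which rose, could only be higher. CNTNAP2 (ENSG00000174469, chr7:146116002-148420998, plus strand), which clusters potassium channels beside the node of Ranvier, had the highest level per kilobase of exon of all members in WT cells. It had 19478, 15128, 15054 and 19472 counts in EXT1-/- libraries and 28471, 24697, 24557 and 26602 in WT libraries, and fell (log2 fold change -0.60 ± 0.11, adjusted p = 0.00257). The groups did not overlap, and in each genotype the high-set libraries were the higher ones. CNTNAP5 had 48, 57, 55 and 52 counts in EXT1-/- libraries and 23, 13, 21 and 19 in WT libraries, all WT values below 1 CPM (log2 fold change 1.46 ± 0.21, adjusted p = 9.50e-04).

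CNTN1, the only contactin measured, had 54 to 73 counts in EXT1-/- libraries and 49 to 66 in WT libraries and did not pass. CNTNAP1, the partner of CNTN1 at the axon's paranodes, had 307 to 376 counts in EXT1-/- libraries and 296 to 467 in WT libraries, also without passing. CNTNAP3 (963 to 1080 counts in EXT1-/- libraries and 893 to 988 in WT libraries) did not pass, and its value is uncertain because reads may be shared with the near-identical copies CNTNAP3B and CNTNAP3C.

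Among the immunoglobulin adhesion molecules, 9 of 12 names were measured, and 4 rose, 1 fell and 4 did not pass (55.6% called, against 32.0% of all genes). NRCAM (ENSG00000091129, chr7:108147623-108456717, minus strand), an L1-family protein that binds ankyrin and contactins and guides axons, had the largest log2 fold change and the smallest adjusted p of all members. It had 1746, 1848, 1721 and 1743 counts in EXT1-/- libraries and 554, 491, 485 and 482 in WT libraries. The means were 1765 ± 56.8 and 503.0 ± 34.2 (SD, n = 4 each), a 3.51-fold difference (log2 fold change 1.81 ± 0.06, adjusted p = 4.48e-07). L1CAM, its relative, had 605 to 762 counts in EXT1-/- libraries and 470 to 683 in WT libraries and did not pass (log2 fold change 0.21, 95% interval -0.08 to 0.51). NFASC, which anchors the node of Ranvier, also did not pass, at 247 to 345 counts in EXT1-/- libraries and 267 to 364 in WT libraries.

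NCAM1 (ENSG00000149294, chr11:112961247-113278436, plus strand), the neural cell adhesion molecule, had 575, 457, 474 and 603 counts in EXT1-/- libraries and 208, 176, 168 and 169 in WT libraries. It rose 2.93-fold (log2 fold change 1.54 ± 0.12, adjusted p = 2.13e-05), and the groups were far apart. NCAM2 had 62 to 69 counts in EXT1-/- libraries and 53 to 68 in WT libraries and did not pass. Of the CADMs (SynCAMs), CADM2 fell, with 104, 131, 124 and 121 counts in EXT1-/- libraries and 266, 284, 303 and 288 in WT libraries (log2 fold change -1.25 ± 0.09, adjusted p = 2.18e-05). CADM1 (1900 to 2225 counts in EXT1-/- libraries and 1436 to 1569 in WT libraries) and CADM4 (676 to 732 counts in EXT1-/- libraries and 518 to 547 in WT libraries) rose by log2 fold changes of 0.42 and 0.39, without overlap. CADM3 did not pass, at 207 to 255 counts in EXT1-/- libraries and 207 to 321 in WT libraries.

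The counts are per gene and pool all promoters of a gene, and several members have widely spaced starts. Neurexin genes, for example, are known to make long alpha and short beta forms from separate promoters. RefSeq lists 59 start windows (the 250 bases before a start, GRCh38.p14) for 32 of the 40 members, and 15 members have more than 1 start. Shown are the 150 bases just before a start, on the gene's strand and with CpG dinucleotides in capitals, for members of opposite direction and of unlike CpG content: NRCAM start 1 (chr7:108456437-108456586, minus strand), NRXN3 starts 1 (chr14:78170223-78170372, plus strand) and 3 (chr14:79279230-79279379, plus strand), FLRT3 (chr20:14337613-14337762, minus strand) and TENM1 start 1 (chrX:125204313-125204462, minus strand).
NRCAM start 1: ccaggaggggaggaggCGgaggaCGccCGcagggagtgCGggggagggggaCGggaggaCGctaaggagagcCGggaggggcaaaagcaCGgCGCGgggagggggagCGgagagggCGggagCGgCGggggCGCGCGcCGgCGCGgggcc
NRXN3 start 1: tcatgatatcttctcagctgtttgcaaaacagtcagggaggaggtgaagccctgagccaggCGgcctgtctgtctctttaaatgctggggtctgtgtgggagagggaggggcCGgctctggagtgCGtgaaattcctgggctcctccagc
NRXN3 start 3: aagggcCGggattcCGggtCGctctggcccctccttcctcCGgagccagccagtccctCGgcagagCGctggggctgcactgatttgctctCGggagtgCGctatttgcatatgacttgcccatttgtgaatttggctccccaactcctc
FLRT3 start 1: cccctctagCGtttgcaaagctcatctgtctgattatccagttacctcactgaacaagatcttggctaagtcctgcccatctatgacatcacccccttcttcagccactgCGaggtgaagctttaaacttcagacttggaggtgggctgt
TENM1 start 1: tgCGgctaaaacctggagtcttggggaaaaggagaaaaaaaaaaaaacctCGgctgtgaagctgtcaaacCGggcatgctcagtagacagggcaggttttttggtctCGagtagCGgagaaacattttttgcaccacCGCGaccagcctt

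These stretches hold 20 CpGs for NRCAM, 3 and 8 for the NRXN3 starts, 2 for FLRT3 and 7 for TENM1. By GENCODE 29, TENM1 start 1 lies upstream of the span given to that gene, and the NRCAM stretch lies within the span of NRCAM. The members that rose most include a CpG-dense start and a CpG-poor one. Over whole windows, members had a median of 13 CpGs and 62.4% G+C, against 11 CpGs and 58.0% over all 35116 windows. CTTTGA, searched on both strands as a TCF/LEF core because CHIR-99021 activates β-catenin, was found in 6 of 59 member windows (10.2%), against 11.2% of all windows. Of the 10 members changed at least 2-fold, 8 had windows, and 3 of their 16 windows held it: NRCAM start 3, TENM2 start 1 and TENM1 start 2. TENM2 start 1 (chr5:167073242) lies upstream of the span given to TENM2. A match is only these letters in the window.

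Levels of different members were compared per kilobase of exon (the union of a gene's exons). In WT cells CNTNAP2 led with 1565 counts per kilobase, ahead of ADGRL2 with 1542. In EXT1-/- cells ADGRL2 led with 1790 and CNTNAP2 followed with 1037. PTPRF (918 in EXT1-/- cells and 871 in WT cells) and ADGRL1 (529 in EXT1-/- cells and 445 in WT cells) came next in both genotypes. NRCAM stood 10th in EXT1-/- cells and 20th in WT cells. The most abundant transcripts were thus of latrophilins, phosphatases and CNTNAP2, and the members that changed most in ratio were of middle or low abundance.

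The make-up of families was described by each member's share of its family's summed level per kilobase. NRCAM made up 67.0 ± 3.0% of the measured L1 family in EXT1-/- cells and 39.4 ± 2.3% in WT cells (SD, n = 4 each), where L1CAM held the larger share (28.8% in EXT1-/- cells and 51.2% in WT cells). SLITRK5 took 68.6 ± 4.5% of the SLITRKs in EXT1-/- cells and 51.9 ± 3.5% in WT cells. FLRT3 took 78.1 ± 3.0% of the measured FLRTs in EXT1-/- cells and 48.7 ± 8.2% in WT cells. The size of the FLRT shares depends on the exon lengths used, 34899 bases for FLRT2 and 5190 for FLRT3. By counts not divided by length, FLRT2 was higher than FLRT3 in every library of both genotypes. NCAM1 made up 84.2 ± 1.5% of the NCAMs in EXT1-/- cells and 66.3 ± 1.8% in WT cells. The ranges of all these shares did not overlap between genotypes.

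Shares within the teneurins differed most for the minor members. TENM2 made up 10.8 ± 1.3% of teneurins in EXT1-/- cells and 3.96 ± 0.64% in WT cells, and TENM1 3.0 ± 0.6% in EXT1-/- cells and 9.12 ± 0.79% in WT cells, so the order of these paralogues was opposite in the genotypes. TENM3 remained the main teneurin, at 74.2% in EXT1-/- cells and 75.0% in WT cells, with overlapping ranges. NLGN2 made up 80.0 ± 1.9% of the neuroligins in EXT1-/- cells and 72.5 ± 3.2% in WT cells, and NLGN1 9.29 ± 1.86% in EXT1-/- cells and 20.0 ± 3.5% in WT cells. The share of WT replicate 1 lay nearest to the EXT1-/- values for both of these (77.1% and 14.8%). Among the CADMs, CADM2 made up 2.12 ± 0.23% in EXT1-/- cells and 6.09 ± 0.39% in WT cells. PTPRF, the main LAR-type phosphatase, made up 58.3 ± 1.2% in EXT1-/- cells and 65.3 ± 0.7% in WT cells, and PTPRD 13.1 ± 1.2% in EXT1-/- cells and 9.75 ± 1.02% in WT cells. Latrophilin shares overlapped for all 3 genes, with ADGRL2 at 74.5% in EXT1-/- cells and 74.9% in WT cells.

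**Figure D4:**
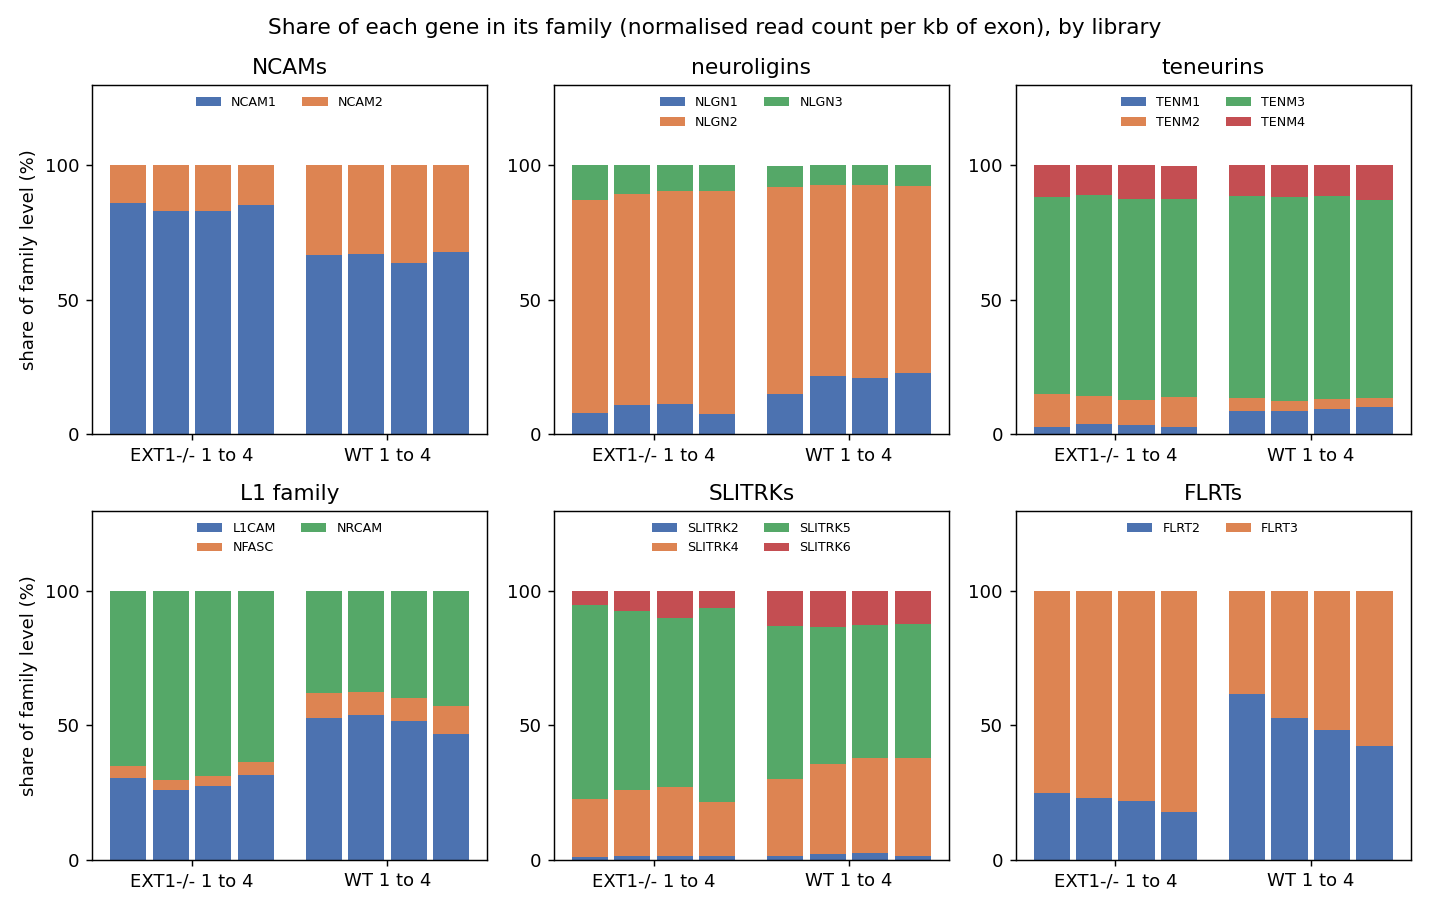
Share, in percent, of each measured member in its family's summed level per kilobase of exon, with 1 stacked bar per library, for 6 families. NCAM1 fills 82.9 to 85.9% of the EXT1-/- bars and 63.7 to 67.7% of the WT bars, and the NRCAM, SLITRK5 and FLRT3 segments are also taller in each EXT1-/- library.

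Genes that work with the members, and other neural adhesion genes, were counted from lists of 107 names, of which 85 were measured. Their calls are to be read against the 15.2% of all genes that rose and the 16.8% that fell. In every WT library 2 secreted and membrane partners, 1 scaffold and 1 other neural adhesion gene were below 1 CPM. These entered through their EXT1-/- values and could only be higher there. Of the secreted and membrane partners, 21 of 36 names were measured and 6 rose and 5 fell (52.4% called), with a median log2 fold change of -0.10. LGI1, a secreted ligand of ADAM22, had 222 to 396 counts in EXT1-/- libraries and 19 to 27 in WT libraries (log2 fold change 3.63). All WT values of LGI1 were below 1 CPM, so its direction was fixed by its entry to the table. Its relative LGI4 had 33 to 48 counts in EXT1-/- libraries and 101 to 137 in WT libraries (-1.55). CBLN1, a secreted bridge between neurexins and the glutamate receptor GluD2, rose by 1.08 on the log2 scale, and OLFM3, a secreted olfactomedin, by 1.52. Of the intracellular scaffolds, 36 of 38 names were measured and 11 rose and 7 fell (18 of 36 called, median 0.15). The postsynaptic scaffolds DLG2 (80 to 116 counts in EXT1-/- libraries and 199 to 240 in WT libraries, log2 fold change -1.20) and SHANK2 (320 to 446 counts in EXT1-/- libraries and 753 to 1066 in WT libraries, -1.16) fell, as did EPB41L2 (-0.52), a membrane-skeleton protein, while AFDN, the nectin adaptor, rose (0.47). SHANK1 and SHANK3, named here after their values were seen, rose (1.62 and 1.04 on the log2 scale), opposite to SHANK2. All WT values of SHANK1 were below 1 CPM (15 to 25 counts), so SHANK1 could only be higher in EXT1-/- cells.

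Of other neural adhesion genes, 28 of 33 names were measured, and 13 rose and 4 fell (60.7% called); the median log2 fold change was 0.28, and 0.18 in the low set alone. CDH6, a classical cadherin, had 811 to 1023 counts in EXT1-/- libraries and 45 to 77 in WT libraries, a log2 fold change of 3.91. ALCAM, an immunoglobulin adhesion molecule (3043 to 3448 counts in EXT1-/- libraries and 1353 to 1619 in WT libraries), and CDH8, another cadherin (491 to 552 counts in EXT1-/- libraries and 262 to 299 in WT libraries), rose by 1.12 and 0.90. OPCML, an IgLON protein of neurons, fell (16 to 27 counts in EXT1-/- libraries and 68 to 77 in WT libraries, -1.80). All its EXT1-/- values were below 1 CPM, so OPCML entered through its WT values and could only be lower in EXT1-/- cells. Neither the members nor these lists moved as a block: each held genes that rose and genes that fell.

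Markers of cell types that use these genes moved as well. The 10 measured of 15 neuron markers summed to 10207 to 13374 counts in EXT1-/- libraries and 4958 to 5424 in WT libraries. STMN2, NEUROG2, TUBB3 and DCX rose and SYP, a synaptic vesicle protein, fell (23 to 36 counts in EXT1-/- libraries and 42 to 47 in WT libraries, adjusted p = 0.0492). NEUROG2 was below 1 CPM in every WT library (7 to 13 counts) and could only be higher in EXT1-/- cells. SYP was below 1 CPM in every EXT1-/- library and could only be lower there. TUBB3 alone gave 6101 to 8214 of the summed counts in EXT1-/- libraries and 2327 to 2889 in WT libraries. The other 5 (GAP43, RBFOX3, MAPT, SYN1 and INA) did not pass. With the set term RBFOX3, SYN1 and INA also passed as lower (adjusted p 0.00882, 0.00734 and 0.0275), and in the low set RBFOX3 and SYN1 did while the SYP call was lost (0.112). The median log2 fold change of the 10 was 0.22, and 0.06 in the low set. Markers of neural crest and plate border (4 of 6 measured, without SOX10 and FOXD3, all 4 higher) summed to 7384 to 16634 counts in EXT1-/- libraries and 586 to 760 in WT libraries. MSX1 alone gave 3974 to 10856 of these counts in EXT1-/- libraries, highest in replicate 4, and 390 to 536 in WT libraries. TFAP2A was below 1 CPM in every WT library (1 to 5 counts) and could only be higher in EXT1-/- cells. Markers of neural progenitors (4 of 7 measured, without PAX6, SOX1 and HES5) summed to 34400 to 45415 counts in EXT1-/- libraries and 18886 to 19375 in WT libraries. In that list VIM, NES and SOX3 rose, VIM with 22340 to 32467 counts in EXT1-/- libraries and 8910 to 9770 in WT libraries. FABP7 had a log2 fold change of -0.43 and did not pass, but passed as lower with the set term (0.00882) and in the low set (0.0266).

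Pluripotency markers (5 of 5) summed to 55307 to 61982 counts in EXT1-/- libraries and 98330 to 101379 in WT libraries, with SOX2 higher and POU5F1, NANOG, DPPA4 and L1TD1 lower. Primitive streak markers (6 of 6) summed to 17369 to 32807 counts in EXT1-/- libraries and 32040 to 35427 in WT libraries, a sum that joins opposite calls. EOMES (log2 fold change -1.51), MIXL1 (-1.54) and TBXT (-0.90) fell without overlap, and FGF17 (2.52) and SP5 (0.85) rose. GSC did not pass (-0.55), but passed as lower in the low set (-0.75, adjusted p = 0.0349). Of its EXT1-/- libraries only replicate 4, with 47 counts, was above 1 CPM. GSC thus entered the table through its WT values, which favoured a call as lower in EXT1-/- cells. The sums overlapped through EXT1-/- replicate 4, which had 15484 counts of SP5 against 6539 to 7274 in the other EXT1-/- libraries. No measured marker of these lists was at 0 in any library. The part of these shifts in the members' differences was not tested.

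The members were also long genes. Their median span was 262 kb (5.04 to 2300 kb), against 34.6 kb for the protein-coding genes of the table. They lay on 16 chromosomes, and neighbours did not always move alike: SLITRK5, which rose, lies 1.87 Mb from SLITRK6, which did not pass, on chromosome 13. NCAM1 and CADM1, 1.89 Mb apart on chromosome 11, both rose. On chromosome 14, NRXN3 rose and FLRT2, 5.66 Mb away, fell. The authors' deposited table calls 21 members at an FDR of 0.05, 17 higher and 4 lower (12.6% and 13.6% of all genes), of which 19 were shared with the 21 above. ADGRL2 and FLRT2 passed in limma alone, and NLGN2 and PTPRS in the authors' table alone.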

How the data were processed

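Total RNA was sequenced from 4 EXT1-/- and 4 WT libraries with a stranded kit; the strand setting of the counting is not given in the sources used here. Per the submitters' processing notes, STAR, RSEM and edgeR were used with GRCh38.p10. The authors deposited 1 table holding, per library, whole numbers that are a normalised signal and not raw counts (effective sizes 38889717 to 38899767), and, for each gene, the authors' own log2 fold change, log2 CPM, test score, p-value and FDR, printed only as theirs. It held 0 columns of other samples.

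Groups came from the sample titles. limma 3.58.1 (R 4.3.3) was fitted with an intensity trend to log2(value + 1) of all 15811 genes, with genotype as the term and Benjamini-Hochberg adjustment (threshold 0.05); the pseudocount understates fold changes of low genes. No expression filter was added to that of the deposited table. The fit was tested on simulated data that held no library sets, so its behaviour under the sets seen here was not tested. EXT1 had a two-sided exact permutation test. In every pair, libraries of a group differed by more than the counting noise of raw counts of this size (chi-square per degree of freedom 4.42 to 119 within groups). The values are normalised, so their true sampling noise is not known. Library sets came from the largest gap in mitochondrial share. Spans and exon lengths came from GENCODE 29, which matched 15777 genes (99.8%), and start windows from RefSeq. Other software was scipy 1.17.1, pandas 2.3.3, matplotlib 3.10.9 and numpy 2.4.6 under Python 3.11.15.

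The values of 1 member are not reported here. Members and lists were chosen with earlier results of these data known. Values in every library were given for members called at 2-fold or more, those in the top 5 by mean, and EXT1, NRXN2, NRXN3, the LAR-type phosphatases, NCAM1, FLRT2, FLRT3 and ADGRL2. The other members were given by range or count, with the 4 of smallest adjusted p in a group as examples. Up to 4 genes were given per list of partners or other neural adhesion genes, by adjusted p. Alternatives were other pseudocounts, filters and scalings, no trend, limma-voom, a replicate block, the library set and each library left out.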

Additional observations from a re-analysis of the deposited data

Results flagged for a closer look

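In 7 of 80 groups of 4 libraries, the highest or lowest library stood farther from the other 3 than Dixon's 95% limit for the group's range; chance alone does this in about 1 in 20 groups. All 7 were high values in libraries of the high mitochondrial set. EXT1-/- replicate 4 had 247 counts of FLRT3, where the other EXT1-/- libraries had 192 to 201, and 1587 counts of LRRC4, where the others had 1185 to 1215. WT replicate 1, the lone WT library of that set, had 554 counts of NRCAM (482 to 491 in the other WT libraries), 1823 of SLITRK5 (1506 to 1521), 1362 of NRXN3 (966 to 997), 178 of NLGN3 (117 to 124) and 1776 of EXT1 (1464 to 1508). Except for EXT1, each of these genes was called higher in EXT1-/- cells, and the part of the library set in the stray values was not tested.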

How the results depend on the processing

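Between 17 and 24 members were called when each library was left out in turn (13 to 20 higher, 4 to 5 lower), over fits that called 23.5 to 38.2% of all genes, and 22 with limma-voom (31.6%). Calls of ADGRL2, FLRT2, LRRTM1 and NLGN3 were marginal: each was lost when any of several libraries was left out. Filters left 37 members with 19 calls (at least 1 CPM in both groups; 30.1% of genes tested) and 30 with 17 calls (at least 5 CPM in 4 libraries; 31.1%). Other pseudocounts and scalings changed no member's call. With the library set as a term, all genes called became 8195 (4142 higher, 4053 lower). Of the lists of partners and other neural adhesion genes, 25 genes were then lower in place of 16, and 9 were with the filter at 5 CPM. The alternatives for these lists were chosen after seeing the data. Changes of sign touched uncalled members. Over the fits that left out 1 library, log2 fold changes ran from -0.2061 to 0.0040 for CADM3 (positive without WT replicate 1), -0.0230 to 0.1299 for CNTN1 (negative without WT replicate 1, and -0.0128 without EXT1-/- replicate 2), -0.0005 to 0.2859 for SLITRK6 (negative without EXT1-/- replicate 3) and -0.0924 to 0.3793 for NRXN2 (negative without WT replicate 4, and -0.0836 without EXT1-/- replicate 4). In the low set LRRC4C was at -0.0180 and LRRTM4 at 0.0662, and NRXN2 was at -0.0016 with the set term. A replicate block gave 22 calls (17 higher, 5 lower; 31.2% of all genes), adding ADGRL3 (adjusted p = 0.0396); same-numbered libraries correlated at -0.65 to 0.78, with 3 of 4 pairs over 0.1, so the numbers are not taken to pair the libraries. Depth was not known, since only normalised values were available to this work.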
